A study of Sus scrofa with 6 samples.

Results

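The genes of the cytosolic ribosome and of the proteins that help it translate mRNA were examined in lungs of fetal and neonatal pigs. Members were taken by a rule on their pig Ensembl gene symbol, which uses no measured value, although the gene group was picked with earlier results of these data known. Of the 14579 mRNAs in the deposited table, 9478 had a matched symbol, and 62 of these met the rule. They were 24 genes of ribosomal proteins (RPL or RPS with a number, RPLP1 and RPLP2) and 38 genes whose symbol begins with EIF or EEF. Another 31 ribosomal protein symbols and 19 factor symbols of the reference table carry identifiers that are not rows of the table, among them RPS2, RPLP0, RPSA, EIF2S1, EIF4B and EEF1A2, and they were not analysed here. All 62 members had passed the authors' filter of FPKM above 0.5 in at least 1 sample, and none was listed at 0 in any sample.

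Ribosomes build every protein of the cell and consist of a small and a large subunit. Each is an assembly of ribosomal RNA and many ribosomal proteins, most of which are needed in equal numbers. The mRNAs of these proteins are among the most abundant of growing tissues, and most carry a terminal oligopyrimidine (TOP) sequence through which mTOR signaling sets their translation. Initiation factors (eIF) bring the initiator tRNA and the mRNA to the small subunit and find the start codon, and elongation factors (eEF) then move the ribosome along. The supply of cap-binding and scaffold factors, and the proteins that restrain them, limit how much protein a cell makes when nutrients, oxygen or stress change.

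The libraries came from whole lung of 6 female Tibetan-Meishan hybrid piglets (sire Tibetan, dam Meishan), 1 library per piglet. The fetal group (labelled prenatal) held 3 piglets taken on the last day before birth from 3 sows, and the neonatal group held 3 piglets at 2 days after birth, born to 3 other sows. The labels name no treatment or genetic change, and each piglet came from its own sow. Total RNA had been depleted of ribosomal RNA with Ribo-Zero, and the values are FPKM, fragments scaled by transcript length and by the mapped fragments of the library, which set genes of different length on one scale. No read counts are held in the table, so the spread between the 3 lungs of a group was the only error available. A gene is called past the threshold where its Benjamini-Hochberg adjusted p over all mRNAs was at most 0.05, which 6.87% of all mRNAs met (5.41% higher and 1.45% lower after birth).

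The tissue was checked on markers of lung cells: SFTPC, the surfactant protein made by alveolar type II cells, stood between 3171 and 8790.1 FPKM over the 6 lungs, and AGER of type I cells between 396 and 767 FPKM. Of 7 measured epithelial markers (NKX2-1 and SFTPA1 had no matched row), SFTPC and SFTPB were higher and EPCAM and SCGB1A1 lower in every neonatal lung, with SCGB1A1 of club cells at 139, 119 and 99.8 FPKM before and 62.2, 0.213 and 62.0 FPKM after birth, and 0 of 7 were past the threshold in limma (1 at an unadjusted p under 0.05). Summed FPKM reached no more than 2.94 for 3 of 3 neuron markers and 5.01 for 2 of 7 muscle markers in any lung. Of the muscle markers, TNNT2 was at 1.99, 1.33 and 1.86 FPKM before and 0.059, 0.126 and 0.040 FPKM after birth. It was past the threshold (limma, adjusted p = 0.0125), while ACTC1 overlapped between the groups. The summed FPKM of 6 of 8 cycling cell markers was 10.5 to 14.4 in the fetal and 86.0 to 108 in the neonatal lungs, and that of 3 of 5 mesenchyme markers 359 to 521 and 648 to 817, with ACTA2 past the threshold. For 3 of 5 endothelium markers the sums were 181 to 211 and 174 to 193. For 8 of 10 leukocyte markers the sums were 30.8 to 45.0 and 54.3 to 93.4, with SPI1 past the threshold and higher. The B cell genes CD79B and MS4A1 went the other way and were lower in every neonatal lung, with MS4A1 listed at 0 in Neonatal2. For 5 of 7 erythroid markers the sums were 1263 to 2706 and 970 to 1538. Of these 5 genes, 3 had a lower neonatal mean, HBB among them, and 2 a higher one, HBM among them. None of the measured erythroid markers was at 0. The part of these shifts in the values below was not tested, and in whole tissue fewer cells of a type and less RNA per cell cannot be told apart. Summed FPKM of all mRNAs ran from 339491 in Fetal2 to 777982 in Neonatal3, and the median difference of all mRNAs between the groups was 0.13 on the log2(FPKM + 1) scale, which median-of-ratios scaling moved to -0.0090. Members are therefore read against that median.

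Most ribosomal protein mRNAs were near the top of the lung transcriptome in both groups. The mean FPKM of the 24 genes over the 6 lungs ran from 9.69 to 1579 with a median of 304, against a median of 5.77 for all mRNAs. RPS3, a small subunit protein near the entry of the mRNA channel, had the highest mean. The fetal lungs, in the order of their replicate numbers as in all that follows, held 1815, 1546 and 1912 FPKM of it and the neonatal lungs 987, 1573 and 1640.3 FPKM. The other genes with the highest means were RPS18, at 1395, 1138 and 1699 FPKM before and 842, 1484 and 2002 FPKM after birth, and RPS12, at 1440.2, 1149 and 1952 FPKM and 982, 981 and 1720.1 FPKM. In each of these genes the values of the groups overlapped and Neonatal3 was the highest neonatal lung.

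At the low end stood RPS27L, a p53-inducible paralog of RPS27, with 10.1, 8.26 and 11.2 FPKM in the fetal and 6.58, 9.30 and 12.7 FPKM in the neonatal lungs. RPL36AL, a paralog of RPL36A, was next, and RPS23 of the decoding site followed with 58.8, 28.8 and 40.7 FPKM and 31.4, 34.1 and 49.6 FPKM. Ribosomal protein genes have many near-identical processed copies in mammalian genomes, with which reads can be shared, so the level of any 1 gene is uncertain, and a comparison of the same gene between lungs is firmer than one between genes.

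**Figure D1:**
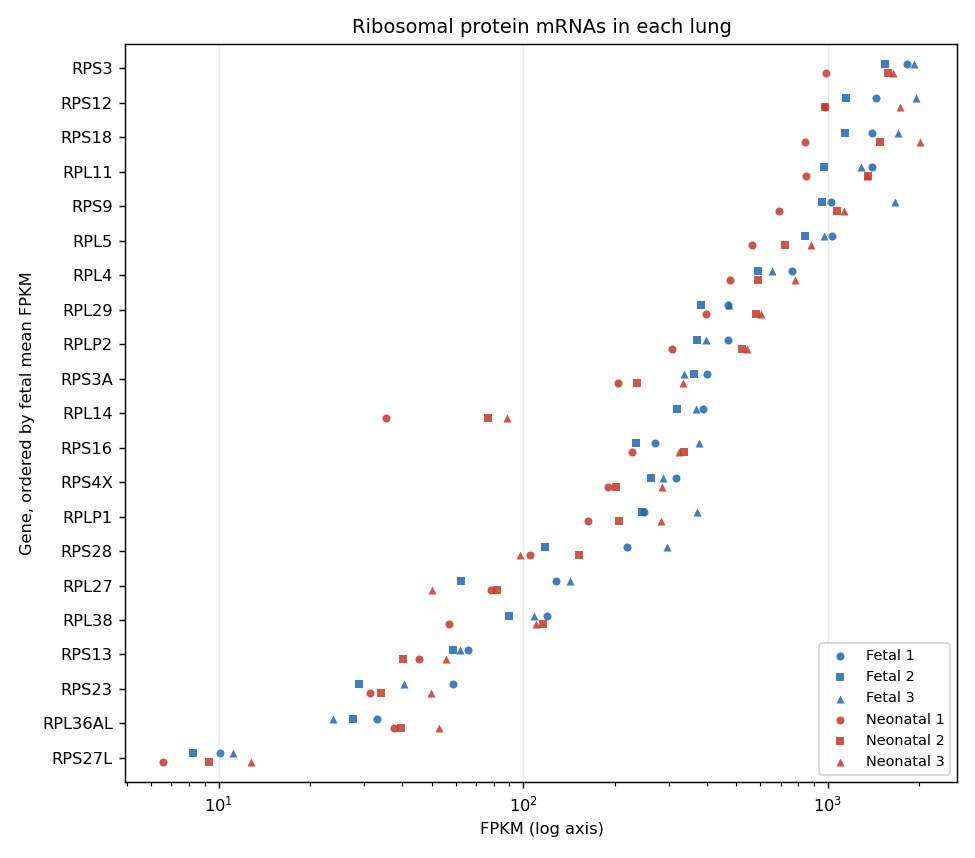
FPKM (log axis) of 21 ribosomal protein genes in each of the 6 lungs, ordered by fetal mean, with fetal lungs in blue, neonatal lungs in red and a marker shape for each replicate. For nearly all genes the colours mix or lie close together, while the neonatal points of RPL14 lie between 35.4 and 88.5 FPKM, far below its fetal points.

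As a group the ribosomal protein mRNAs were lower in the neonatal lungs by a small amount that depended on 1 lung and on scaling. Of the 24 genes, 19 had a lower mean log2(FPKM + 1) in the neonatal group (12 of 14 small subunit and 7 of 10 large subunit genes), where 40.1% of all mRNAs did. Their median difference was -0.20, beside 0.13 for all mRNAs, with -0.25 for the small and -0.18 for the large subunit. When the fetal mean of a gene was set to 0, the 24 genes had a median log2 value of 0.11, -0.22 and 0.12 in the fetal lungs and of -0.59, -0.16 and 0.16 in the neonatal ones. Neonatal1 was the lowest, Neonatal3 the highest, and the groups overlapped. Without Neonatal1 the median difference was 0.01, beside 0.16 for all mRNAs, and 11 of 24 genes had a lower neonatal mean.

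A low or high lung was low or high for most of the genes. Fetal2 had the lowest fetal value of 22 of the 24 ribosomal protein genes (91.7%), against 40.0% of all mRNAs, and Neonatal1 the lowest neonatal value of 20 (83.3%), against 46.6%. After scaling by median-of-ratios size factors the medians were 0.03, -0.16 and 0.13 in the fetal and -0.66, -0.34 and -0.11 in the neonatal lungs, with Neonatal1 again the lowest, and the median difference was -0.38, or -0.22 without Neonatal1. Quantile normalization, which gives every lung the same distribution, brought the difference to -0.74, beside -0.04 for all mRNAs. Then 7 of the 24 genes were past the threshold, all lower, beside 1155 of all 14579 mRNAs, of which 486 were lower. The most abundant translation factors moved as well, EEF2 from -0.28 to -0.91 and EEF1B2 from -0.47 to -1.03. RPL36AL, at a lower level, moved from 0.61 to 0.30. Most mRNAs have far lower levels, so their median does not show whether the shift is particular to ribosomal proteins.

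**Figure D2:**
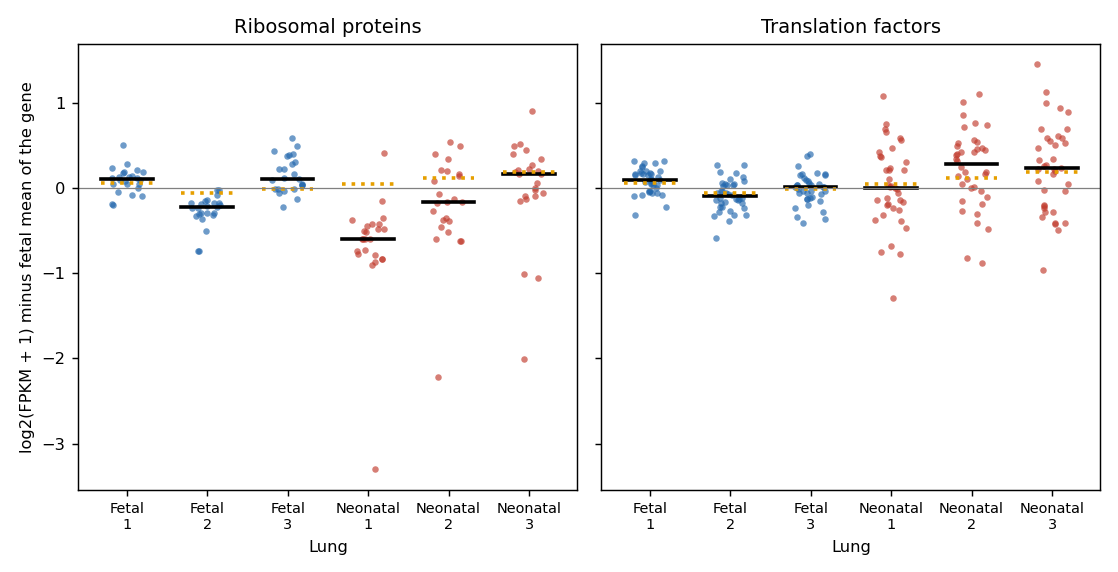
Each point is 1 gene in 1 lung, as log2(FPKM + 1) minus the fetal mean of that gene, for the 24 ribosomal proteins (left) and the 38 translation factors (right); black bars mark the median of the members and dotted orange bars the median of all mRNAs in that lung. The ribosomal protein median is -0.59 in Neonatal1 and 0.16 in Neonatal3, while the factor medians stay between -0.09 and 0.29.

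Summed over the 24 genes, ribosomal protein mRNAs held 3.30%, 3.36% and 3.36% of the FPKM of all mRNAs in the fetal lungs, but 1.76%, 2.15% and 1.92% in the neonatal ones. This is 3.34% ± 0.033 against 1.94% ± 0.195 (SD, n = 3 each), without overlap. The sums themselves overlapped, at 14049, 11418 and 15829 FPKM before and 8631, 12950 and 14943 FPKM after birth, and the totals of all mRNAs were larger in the neonatal lungs. An alternative added once the values were known took the 100 highest mRNAs other than members out of the total, and the share then ran from 5.38% to 6.04% in the fetal and from 3.33% to 4.06% in the neonatal lungs. The share of the 38 translation factors was 0.622%, 0.694% and 0.530% before and 0.444%, 0.432% and 0.353% after birth.

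RPL14 was the ribosomal protein gene with the largest difference. It encodes a protein of the large subunit, and its fetal values were 391, 319 and 371 FPKM. The neonatal lungs held only 35.4, 76.6 and 88.5 FPKM. Every fetal lung thus held more than 3 times the FPKM of every neonatal lung, and RPL14 fell by 2.51 on the log2(FPKM + 1) scale (standard error 0.36, 95% interval -3.34 to -1.68; limma, Benjamini-Hochberg adjusted p = 0.00986). The neonatal mean was 0.186 times the fetal mean. By size of the fall it was the 34th of 14579 mRNAs. With each lung left out in turn the difference lay between -2.76 and -2.11, but the adjusted p was 0.0542, 0.0584 and 0.0501 without Fetal1, Fetal2 or Fetal3 and stayed past the threshold without any neonatal lung. RPL14 alone was past the threshold among the 24 ribosomal protein genes, or 4.17% of them beside 6.87% of all mRNAs.

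RPL14 was lower also relative to its class within each neonatal lung. Its FPKM over the median FPKM of the other 23 ribosomal protein genes was 0.972, 0.881 and 0.981 in the fetal lungs and 0.156, 0.228 and 0.264 in the neonatal lungs. Such a ratio does not depend on scaling between lungs. It was chosen after the values had been seen and is given without a test. Neighbours of RPL14 in the Sscrofa11.1 RefSeq table were measured too: ENTPD3, an ectonucleotidase, had 2.24, 2.58 and 3.33 FPKM before and 2.55, 1.65 and 2.47 FPKM after birth, and the catenin gene CTNNB1 had 134, 120.2 and 125 and 131, 114 and 183 FPKM. Both overlapped between the groups. Whether reads of near-identical RPL14 copies entered these values was not tested.

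None of the other 23 ribosomal protein genes passed the threshold in limma, while 1 of them, RPL36AL, had an unadjusted p under 0.05, which 24.2% of all mRNAs reached. RPL36AL was at 33.2, 27.5 and 23.8 FPKM in the fetal and 37.7, 39.7 and 53.1 FPKM in the neonatal lungs. Each neonatal lung was above each fetal lung, although the class as a whole leaned lower, and the difference was 0.61 (95% interval 0.11 to 1.11, adjusted p = 0.141 in limma). RPS3A and RPS13, both of the small subunit, were the other genes besides RPL14 whose groups did not overlap in the lower direction. RPS3A had 402, 362 and 336 FPKM and 205, 237 and 336 FPKM, and RPS13 had 66.0, 58.6 and 62.0 FPKM and 45.5, 40.2 and 55.9 FPKM. Neonatal3 came within 1 FPKM of the lowest fetal lung for RPS3A. Groups without overlap occurred in 3 of 24 ribosomal protein genes downward and 1 upward, beside 9.64% and 20.9% of all mRNAs.

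Wider spreads marked RPS28 and RPL27, which had the largest differences after RPL14. RPS28, a small protein of the small subunit, was at 218, 118 and 298 FPKM before and 105, 152 and 97.9 FPKM after birth, with a difference of -0.76 (95% interval -1.63 to 0.11). RPL27 of the large subunit had 128, 62.5 and 143 FPKM and 78.1, 81.7 and 50.0 FPKM, with a difference of -0.61 (95% interval -1.45 to 0.23). In both genes Fetal2 lay inside the neonatal range. RPS4X, the small subunit protein encoded on the X chromosome, had 317, 262 and 287 FPKM and 189.6, 201 and 285 FPKM, and Neonatal3 lay inside the fetal range.

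Of the acidic stalk proteins, which draw elongation factors to the large subunit, RPLP1 had a lower and RPLP2 a slightly higher neonatal mean. Both differences lay below the median of 0.13 for all mRNAs. RPLP1 was at 249, 245 and 371 FPKM before and 163, 206 and 283 FPKM after birth, and RPLP2 at 470.0, 372 and 397 FPKM and 307, 523 and 544 FPKM. RPL5 and RPL11, partners that also bind the p53 regulator MDM2, had 1029, 840.4 and 971 FPKM and 1401, 969 and 1288 FPKM in the fetal lungs. In the neonatal lungs RPL5 had 565, 721 and 883 FPKM and RPL11 849, 1359 and 1349.6 FPKM. The groups overlapped for all 4 genes, and Neonatal1 was the lowest lung in each.

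Further genes of the class were RPS9 and RPS16 of the small subunit and RPL4, RPL29 and RPL38 of the large subunit. Their groups overlapped in every case. RPL4 had 765, 591 and 655 FPKM in the fetal and 478, 589 and 781 FPKM in the neonatal lungs. RPL29, with the largest positive difference of the class after RPL36AL, had 471, 383 and 474 FPKM and 399, 582 and 605 FPKM. The standard error of the difference ran from 0.192 to 0.452 over the 24 genes, and a p above the threshold does not show that the levels of a gene were equal.

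**Figure D3:**
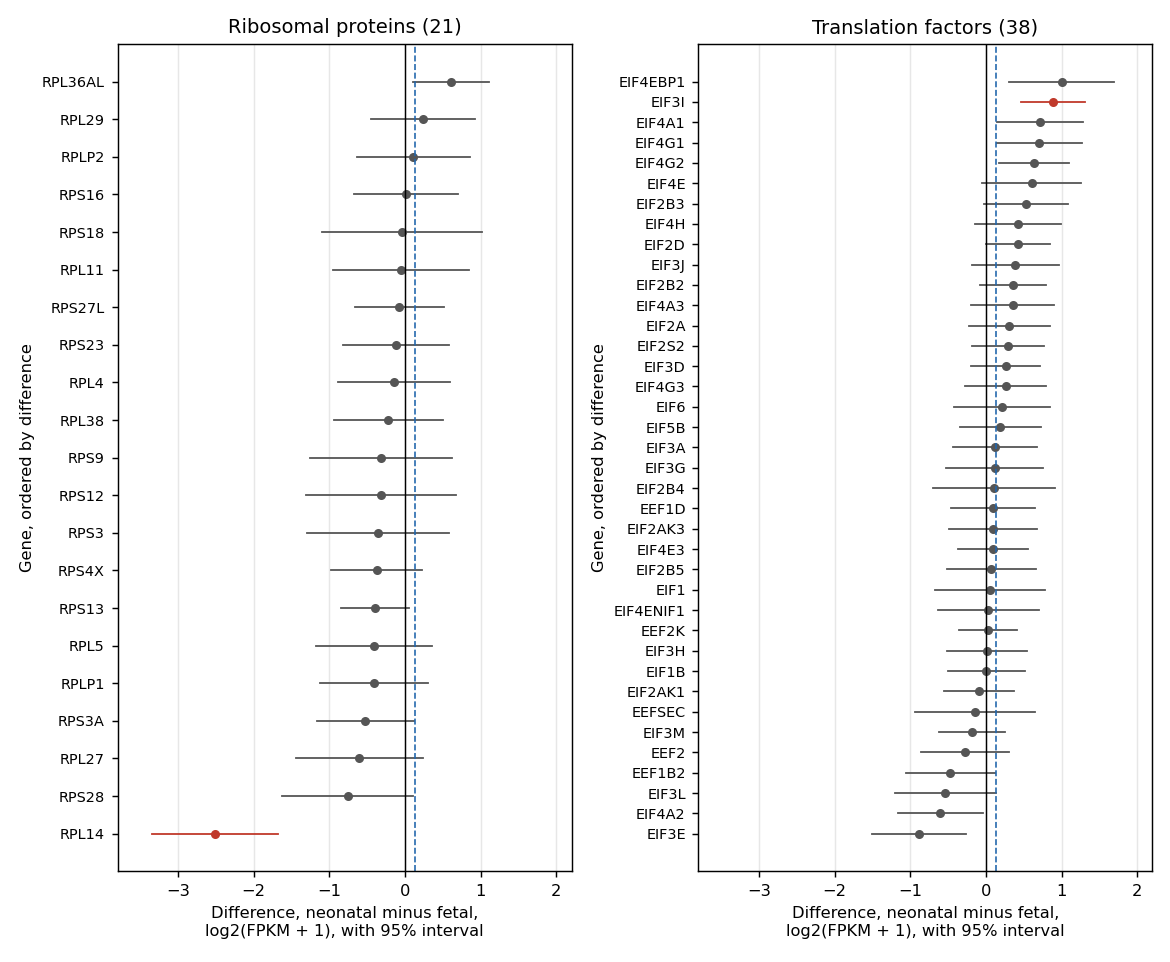
Difference between the neonatal and fetal group in log2(FPKM + 1) with its 95% interval from limma, for 21 ribosomal proteins (left) and 38 translation factors (right), ordered by size; red marks an adjusted p of 0.05 or less and the dashed blue line the median of all mRNAs, 0.13. RPL14 at -2.51 and EIF3I at 0.89 are the red genes, and most other intervals cross 0.

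Translation factors covered a lower range of levels and centred on the median of all mRNAs. The mean FPKM of the 38 genes over the 6 lungs ran from 2.60 to 465, with a median far below the 304 of the ribosomal proteins. The highest were EEF2, EEF1B2 and EIF3H, a subunit of eIF3, and the lowest were EEFSEC, which brings selenocysteine to the ribosome, EIF5B, which joins the subunits, and the eIF4E shuttling protein EIF4ENIF1. Of the 38 genes, 30 had a higher mean in the neonatal group and 8 (21.1%) a lower one, beside 40.1% lower among all mRNAs. Their median difference was 0.12 beside 0.13 for all mRNAs. Under median-of-ratios scaling 20 had a lower mean, and the median difference was -0.05. Only EIF3I was past the threshold in limma, or 2.63% of the class beside 6.87% of all mRNAs, and 7 genes had an unadjusted p under 0.05, or 18.4% of the class where 24.2% of all mRNAs did. In 9 genes the groups did not overlap with the neonatal lungs higher, and in 4 with the neonatal lungs lower, beside 20.9% and 9.64% of all mRNAs.

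**Figure D4:**
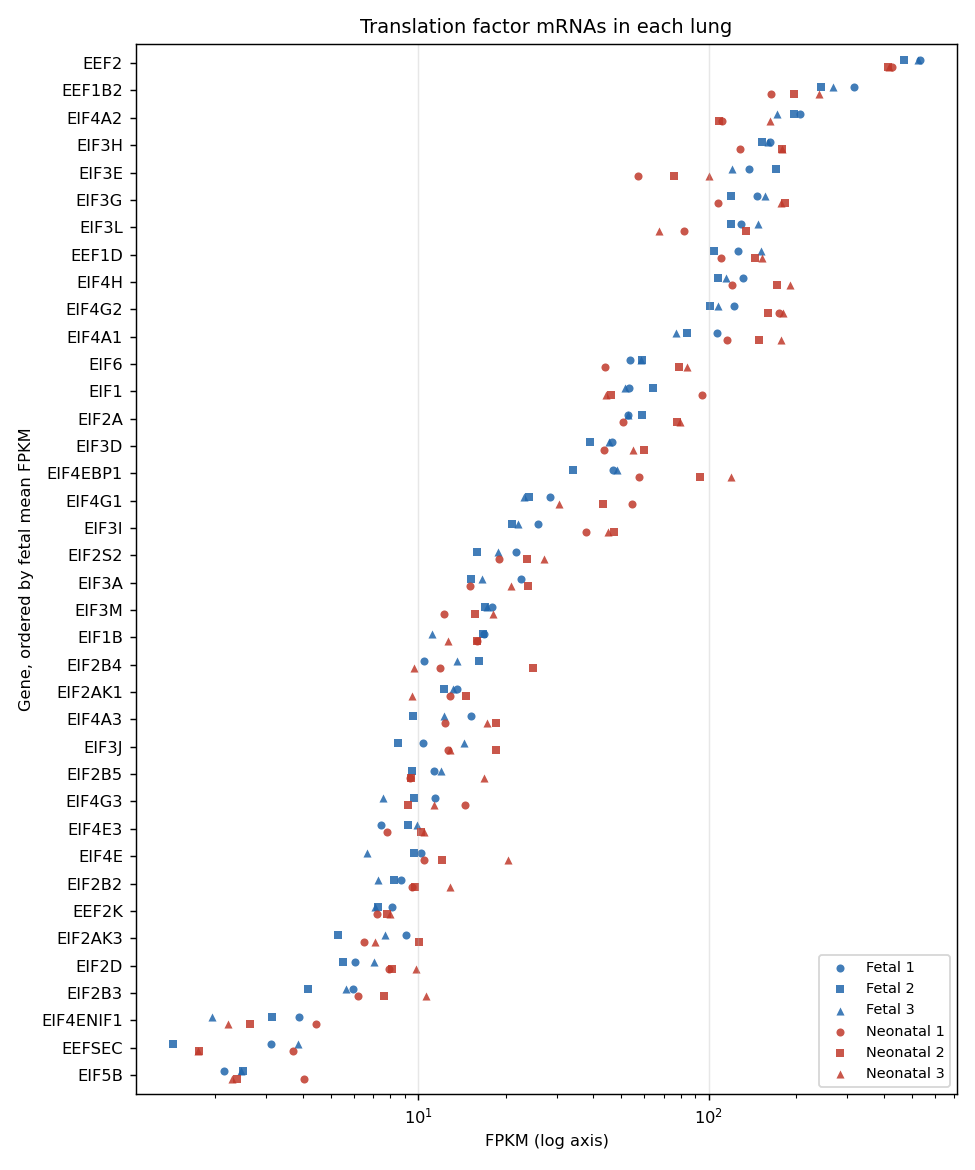
FPKM (log axis) of the 38 translation factor genes in each of the 6 lungs, ordered by fetal mean, with fetal lungs in blue, neonatal lungs in red and a marker shape for each replicate. Red points lie to the right of blue points for EIF3I, EIF4EBP1, EIF4G1, EIF4G2 and EIF4A1 and to the left for EIF3E, EIF4A2, EEF1B2 and EEF2.

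Subunits of eIF3, the large complex that holds the small subunit ready for mRNA, differed in direction. EIF3I, a subunit built as a WD40 propeller, was at 25.8, 21.1 and 22.1 FPKM in the fetal and 37.7, 47.1 and 45.1 FPKM in the neonatal lungs. All neonatal lungs were above all fetal lungs, and EIF3I rose by 0.89 (standard error 0.18, 95% interval 0.46 to 1.31; limma, adjusted p = 0.0317), with a neonatal mean 1.89 times the fetal mean. The difference lay between 0.82 and 0.98 with 1 lung left out, and only the loss of Neonatal1 left EIF3I past the threshold, since the loss of any other lung (Fetal1, 2 or 3, Neonatal2, Neonatal3) gave an adjusted p of 0.0739 to 0.124. EIF3E, a subunit of the other part of the complex, was at 138, 171 and 120.1 FPKM before and 57.2, 76.2 and 101 FPKM after birth. No neonatal lung reached a fetal lung, with a difference of -0.89 (95% interval -1.51 to -0.26), but the adjusted p in limma was 0.0974. It was 0.0413 under median-of-ratios scaling and 0.0235 under quantile normalization. With 1 lung left out, the EIF3E difference lay between -1.09 and -0.68. The limma adjusted p was then 0.0954 to 0.277, past the threshold in no case.

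EIF3L, which binds beside EIF3E, had 129, 119 and 148 FPKM in the fetal and 81.9, 134 and 67.5 FPKM in the neonatal lungs. Neonatal2 lay inside the fetal range, and the other neonatal lungs lay below it. EIF3H and EIF3M, which belong to the same part of the complex, had 163, 153 and 159.8 FPKM and 17.9, 17.0 and 17.2 FPKM before birth. After birth EIF3H had 128, 179 and 179 FPKM and EIF3M 12.3, 15.6 and 18.1 FPKM, so that both overlapped. EIF3G, the partner of EIF3I, overlapped as well, with 147, 119 and 156 FPKM and 107, 183 and 178 FPKM. EIF3A, the scaffold of the complex, EIF3D, which can bind the cap of some mRNAs, and the loosely held EIF3J overlapped between the groups too. Their neonatal means were 1.10, 1.21 and 1.33 times the fetal means.

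The genes of eIF4F, the assembly of cap-binding protein, scaffold and helicase that recruits mRNA, had higher means in the neonatal lungs, apart from EIF4A2, and none was past the threshold. EIF4E, the cap-binding protein, was at 10.2, 9.65 and 6.66 FPKM before and 10.5, 12.1 and 20.3 FPKM after birth. The scaffold EIF4G1 was at 28.5, 24.1 and 23.2 FPKM and 54.3, 43.4 and 30.5 FPKM, and Neonatal3 was close to the fetal lungs while Neonatal1 was the highest. EIF4G2, a related protein that does not bind eIF4E, had 123, 101 and 107 FPKM and 175, 159.9 and 179.9 FPKM, with tight groups. The differences were 0.60 for EIF4E (95% interval -0.05 to 1.26), 0.70 for EIF4G1 (95% interval 0.14 to 1.27) and 0.63 for EIF4G2 (95% interval 0.17 to 1.09). In limma the adjusted p values were 0.241, 0.131 and 0.106, although each neonatal lung was above each fetal lung for all 3 genes.

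The helicase paralogs EIF4A1 and EIF4A2 lay on opposite sides. EIF4A1 was at 106, 84.2 and 77.0 FPKM in the fetal and 115, 149 and 178 FPKM in the neonatal lungs, a difference of 0.71 (95% interval 0.14 to 1.28, adjusted p = 0.132 in limma). EIF4A2 was at 207, 196 and 172 FPKM and 111, 108 and 163 FPKM, a difference of -0.60 (95% interval -1.17 to -0.04, adjusted p = 0.183 in limma). Neither gene overlapped between the groups, and neither was past the threshold. The ratio of EIF4A1 to EIF4A2 within a lung, in FPKM and so per length, was 0.515, 0.430 and 0.448 before and 1.04, 1.38 and 1.09 after birth. In the fetal lungs EIF4A2 was the more abundant, and in the neonatal lungs EIF4A1 was. RFC4, a replication gene whose annotated end overlaps that of EIF4A2 in the Sscrofa11.1 RefSeq table, had 2.09, 2.34 and 3.92 FPKM and 6.04, 7.39 and 7.96 FPKM, and the libraries were strand-specific. The paralogs share much of their coding sequence, and the part of shared reads was not tested.

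EIF4EBP1, a binding protein that blocks eIF4E until mTOR phosphorylates it, had the largest positive difference of all 62 genes. It was at 46.8, 34.2 and 48.4 FPKM in the fetal and 57.6, 93.4 and 119 FPKM in the neonatal lungs. Neonatal1 was the nearest to the fetal lungs and Neonatal3 the farthest, and no values overlapped. The difference was 1.00 (95% interval 0.30 to 1.70, adjusted p = 0.0956 in limma). With 1 lung left out it lay between 0.77 and 1.29, with limma adjusted p values of 0.0397 to 0.283. Only the fit without Neonatal1, which gave 1.29, was past the threshold among these. The ratio of EIF4EBP1 to EIF4E was 4.60, 3.54 and 7.27 before and 5.51, 7.74 and 5.85 after birth, with overlap. EIF4ENIF1, which carries eIF4E into the nucleus, stood at 3.88, 3.13 and 1.96 FPKM and 4.43, 2.64 and 2.22 FPKM.

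The remaining eIF4 genes overlapped. EIF4H, which stimulates the helicase, had 131, 107 and 115 FPKM and 120.3, 172 and 191 FPKM, and EIF4A3, which serves in the exon junction complex, had 15.2, 9.61 and 12.3 FPKM and 12.3, 18.5 and 17.2 FPKM. EIF4E3, a cap-binding relative of EIF4E, had neonatal and fetal means with a ratio of 1.07, and the scaffold EIF4G3 one of 1.22.

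**Figure D5:**
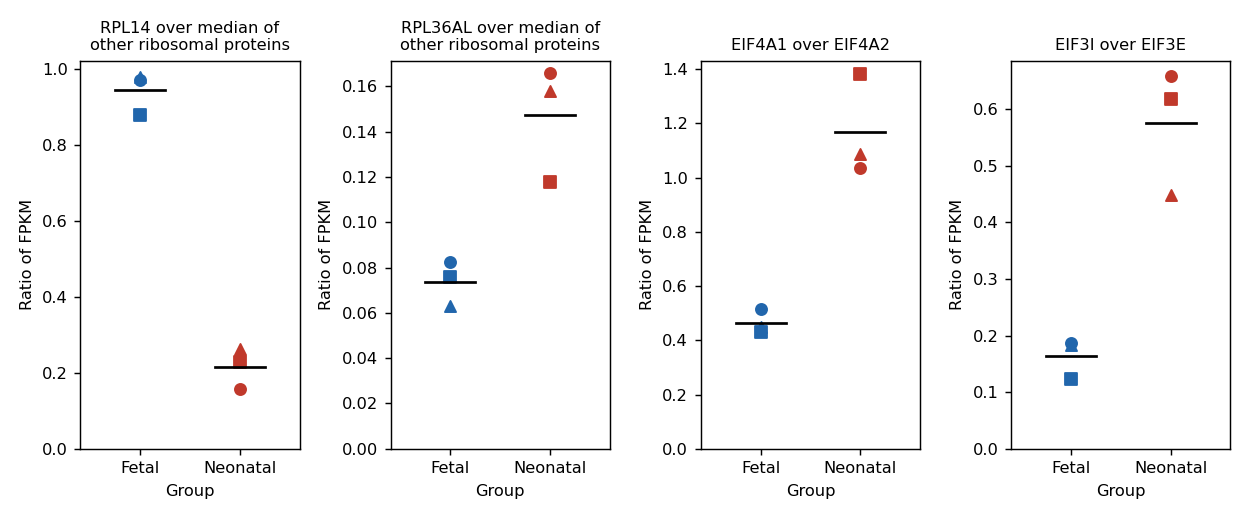
Ratios of FPKM within each lung, 3 fetal (blue) and 3 neonatal (red) lungs with a marker shape for each replicate and the group mean as a bar, on axes that start at 0. RPL14 over the median of the other ribosomal proteins is 0.881 to 0.981 before and 0.156 to 0.264 after birth, and EIF4A1 over EIF4A2, EIF3I over EIF3E and RPL36AL over the other ribosomal proteins are higher in every neonatal lung; the ratios were chosen after the values were seen.

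Factors that load the initiator tRNA had slightly higher neonatal means. In eIF2, the carrier of that tRNA, only the beta subunit EIF2S2 had a matched row, at 21.7, 15.9 and 18.8 FPKM before and 19.0, 23.6 and 27.1 FPKM after birth. All 4 measured genes of eIF2B, the factor that recharges eIF2 with GTP and a target of the integrated stress response, had a higher neonatal mean. None was past the threshold, and 40.1% of all mRNAs had a lower neonatal mean. The differences of EIF2B4 and EIF2B5 lay below the median of 0.13 for all mRNAs. EIF2B2 had 8.70, 8.25 and 7.27 FPKM and 9.49, 9.77 and 12.8 FPKM, and EIF2B3 5.98, 4.18 and 5.64 FPKM and 6.21, 7.61 and 10.6 FPKM, both without overlap. EIF2B4 and EIF2B5 overlapped, and the highest values were in Neonatal2 for EIF2B4, at 24.8 FPKM, and in Neonatal3 for EIF2B5, at 16.9 FPKM. EIF2D, which can place tRNA on the ribosome without eIF2, was higher in every neonatal lung, with 6.03, 5.50 and 7.01 FPKM and 7.90, 8.12 and 9.79 FPKM (difference 0.42, adjusted p = 0.212 in limma). EIF2A had 52.7, 59.0 and 52.5 FPKM and 50.6, 77.8 and 79.9 FPKM.

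The kinases that shut eIF2 off had overlapping groups. EIF2AK1, which responds to heme shortage, had 13.6, 12.3 and 13.1 FPKM in the fetal and 12.9, 14.5 and 9.48 FPKM in the neonatal lungs. EIF2AK3, the sensor of misfolded protein in the endoplasmic reticulum, had 9.08, 5.27 and 7.70 FPKM and 6.48, 10.0 and 7.09 FPKM. EIF1, which guards start codon choice, had 53.0, 64.1 and 51.4 FPKM and 94.9, 46.3 and 44.2 FPKM, and Neonatal1 alone was high. Its paralog EIF1B overlapped between the groups, with 16.8, 16.7 and 11.2 FPKM and 15.9, 15.9 and 12.6 FPKM. EIF5B too was high in Neonatal1 alone, with 2.15, 2.49 and 2.46 FPKM and 4.05, 2.37 and 2.28 FPKM. EIF6, which keeps the large subunit from joining too early, had 53.7, 58.9 and 58.3 FPKM and 43.8, 78.8 and 84.0 FPKM, with Neonatal1 the lowest and Neonatal3 the highest of all lungs.

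Of the 4 elongation factor genes, EEF2, EEF1B2 and EEFSEC had lower neonatal means, and 0 of 4 were past the threshold in limma or had an unadjusted p under 0.05. EEF2, which moves the ribosome by a codon, was the most abundant factor, at 534, 468 and 527 FPKM in the fetal and 427, 413 and 419 FPKM in the neonatal lungs. Its groups did not overlap, and the difference was -0.28 (95% interval -0.86 to 0.31, adjusted p = 0.529). EEF1B2, an exchange factor that recharges eEF1A, was at 316, 243 and 268 FPKM and 163, 196 and 239.7 FPKM, also without overlap, with a difference of -0.47 (95% interval -1.06 to 0.11, adjusted p = 0.293). EEF1D, its partner in the exchange complex, overlapped, at 126, 104 and 151 FPKM and 110.3, 144 and 152 FPKM. EEF2K, the kinase that inhibits eEF2, had 8.12, 7.29 and 7.10 FPKM and 7.21, 7.81 and 8.02 FPKM, with overlap. EEFSEC had 3.12, 1.43 and 3.84 FPKM and 3.72, 1.75 and 1.74 FPKM.

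Other genes of translation, from a list of 57 of which 47 were measured, leaned higher after birth in ribosome biogenesis. Of 26 measured biogenesis genes, 24 had a higher neonatal mean and 2 (7.69%) a lower one, beside 40.1% lower among all mRNAs, and the median difference was 0.41. The 2 genes past the threshold, both higher, were 7.69% of the group, beside 6.87% of all mRNAs. NOP14, a factor of small subunit assembly, rose from 5.85 ± 0.846 to 11.5 ± 0.0963 FPKM (SD, n = 3 each; difference 0.88, adjusted p = 0.0295 in limma). BYSL, which acts in the same assembly, rose from 209 ± 119 to 922 ± 202 FPKM (difference 2.25, adjusted p = 0.0251), with 346, 156 and 126 FPKM in the fetal and 1100.1, 962 and 703 FPKM in the neonatal lungs. Its mean over the 6 lungs was 565 FPKM, beside a median of 5.90 FPKM for the 26 biogenesis genes. Whether reads of other transcripts entered this row was not tested. With 1 lung left out, BYSL was past the threshold only without Fetal1 and NOP14 in no case. BOP1 and DKC1, of large subunit processing and of RNA pseudouridylation, had adjusted p values of 0.0505 and 0.0561 with differences of 0.88 and 0.77.

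Of 7 other TOP mRNAs, 4 had a lower neonatal mean (57.1%, beside 40.1% of all mRNAs) and none was past the threshold in limma, with 1 gene (14.3%) at an unadjusted p under 0.05, which 24.2% of all mRNAs reached. RACK1, a scaffold protein of the small subunit, had 1103, 902 and 1029 FPKM before and 709, 833 and 1211 FPKM after birth, with Neonatal1 again the lowest. FAU, whose product includes a small subunit protein, had only 2.11, 2.26 and 2.23 and 3.54, 3.47 and 2.07 FPKM. The nascent chain factor BTF3 had 182, 127 and 117 FPKM and 96.5, 83.5 and 94.3 FPKM, without overlap. Of 11 genes that control translation, 8 had a higher neonatal mean and none was past the threshold in limma, beside 6.87% of all mRNAs, with 5 (45.5%) at an unadjusted p under 0.05, beside 24.2%. MYC, the transcription factor that drives ribosome production, had 5.25, 3.70 and 2.63 FPKM and 6.97, 7.63 and 6.75 FPKM (adjusted p = 0.0985). MTOR had 6.77, 6.23 and 8.80 FPKM and 9.58, 10.2 and 10.9 FPKM (adjusted p = 0.192), and PDCD4, an inhibitor of the eIF4A helicases, had 34.3, 26.1 and 24.7 FPKM and 11.4, 20.9 and 19.4 FPKM (adjusted p = 0.156). None of these 3 genes overlapped between the groups. Of the 11 genes, 4 did not overlap in the higher and 1 in the lower direction, beside 20.9% and 9.64% of all mRNAs. RPTOR, RPS6KB1, RPS6KB2, LARP1, TSC2 and MYCN overlapped. PPP1R15A had the lowest adjusted p of the 11 in limma, 0.0845. The 3 termination and recycling genes ETF1, GSPT1 and ABCE1 had higher neonatal means, and none was past the threshold in limma, with 1 gene (33.3%, beside 24.2% of all mRNAs) at an unadjusted p under 0.05.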

How the data were processed

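Per the labels and the study's methods, the authors sequenced strand-specific, ribosomal RNA-depleted total RNA of lung from 6 piglets (3 fetal, 3 neonatal), with CASAVA 1.8.2, TopHat2 2.1.0, Cufflinks 2.2.1 and StringTie 1.2.2 named in their processing notes. They deposited FPKM per mRNA and sample, obtained with Cufflinks, which divides by transcript length and by mapped fragments. Depth is not part of the table. Fetal samples are labelled prenatal.

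Symbols came from a reference table of pig Ensembl identifiers, which named 9478 of 14579 rows; unnamed rows could hold further members, and names that the study gave only to genes it called were not used. Of members, values in every lung were given for those past the threshold, those with the 3 highest and lowest means and the 3 largest differences each way in each class, and a list with well known roles; others were added by role. Counts, medians and sums cover all members, but some ribosomal protein genes are not reported here by name or in plots by gene. Differences of single members were printed only for some of those with a difference of at least 0.25. The members, lists and named genes were chosen with earlier results of these data known.

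log2(FPKM + 1) was compared between groups with limma 3.58.1 (variance trend, no block, R 4.3.3) over all 14579 mRNAs, with Benjamini-Hochberg adjustment over all and a threshold of 0.05. A pseudocount understates changes of low genes. Tested on simulated data with 200 changed of 14579 mRNAs, the fit called 0 at a log2 change of 1, 161 (with 10 false calls) at 2 and 184 (with 12 false calls) at 4. The changed genes all rose and had a mean above 3 on the log2 scale. In the data 1001 mRNAs were past the threshold, EIF3I with a difference of 0.89 among them. The simulated shares therefore do not give the power of the fit here. Alternatives were pseudocounts of 0.5 and 0.1, median-of-ratios and quantile scaling, a minimum FPKM of 1 in 3 samples, no variance trend, a replicate block and leaving out each lung. Other denominators were used for the shares. The same replicate numbers did not pair lungs: correlations of their deviations were -0.041, -0.0043 and 0.00047. The deposited table of long noncoding RNAs was not used.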

Additional observations from a re-analysis of the deposited data

How the results depend on the processing

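Under quantile normalization 1155 of all 14579 mRNAs were past the threshold, 486 of them lower. Of 24 ribosomal protein genes 7 were (all lower, among them RPL14, RPL5, RPLP1, RPS13, RPS3A and RPS4X). Of 38 translation factors 4 were (EIF3I higher, and EEF1B2, EIF3E and EIF4A2 lower). Of 47 other translation genes 4 were (NOP14 higher, and BTF3, NAP1L1 and PDCD4 lower, without BYSL). The ribosomal protein median was -0.74 and the factor median -0.088, and EIF2A and EIF3D changed sign to -0.037 and -0.075. Median-of-ratios scaling gave 2 factors (EIF3I and EIF3E) and a factor median of -0.052. Of the 1001 mRNAs past the threshold 78.8% were higher, against 66.0% under median-of-ratios and 57.9% under quantile scaling. With the replicate block, which the data did not show to pair the lungs, 401 mRNAs, 0 factors (EIF3I had an adjusted p of 0.122) and 1 other translation gene were past the threshold, and the other counts and medians of members kept their side. The stricter filter gave 4 other translation genes. With 1 lung left out, the counts were 196 to 944 for all mRNAs, 0 to 1 for ribosomal proteins, 0 to 2 for factors (2 without Neonatal1) and 0 to 1 for other translation genes. The medians then ran from -0.37 to 0.01 for ribosomal proteins and 0.13 to 0.23 for factors. In settings added after the data were seen, leaving out Neonatal1 under median-of-ratios scaling gave 2 factors (EIF3I and EIF4EBP1, both higher) and 0 other translation genes. Without Neonatal1 under quantile scaling there were 3 ribosomal proteins, 1 factor (EEF1B2, lower, without EIF3I) and 1 other translation gene. The medians were then -0.74 and -0.044. The difference in ribosomal protein share, -1.40 points, was -1.20 without RPS3 and -1.84 with the 100 highest other mRNAs out of the total. Of 62 members, 30 changed sign under at least 1 of 13 alternatives and none of them was past the threshold there. The causes were not tested. Matching through older symbols was not run, because the reference table pairs none with Ensembl identifiers. Having 3 lungs a group and no read counts limits the precision.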

Other observations

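A pair of ribosomal protein paralogs outside the symbol rule gave values of their own. RPL26L1, a paralog of RPL26, was at 32.2, 22.0 and 32.5 FPKM in the fetal and 20.8, 23.6 and 39.0 FPKM in the neonatal lungs, and RPL7L1, a relative of RPL7 known from ribosome assembly, was at 7.11, 8.36 and 8.49 FPKM and 8.25, 8.92 and 11.0 FPKM. Both overlapped between the groups, and neither was past the threshold in limma.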
